A study of Mus musculus with 6 samples.

Results

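The 10 genes described here are regulators of the primed epiblast and of gastrulation: Fgf5, Otx2, Pou3f1, Foxd3, T (brachyury), Mixl1, Gsc, Mesp1, Foxa2 and Cer1. They were taken by name from a table of 33142 probe sets, in which 15357 genes could be named, and all 10 were found there, with 11 probe sets. Expression was measured in undifferentiated mouse embryonic stem cells (mESCs) of the C57BL/6 strain, with 3 arrays for WT and 3 for Alkbh1-/- cells. The cells were untreated and taken at passage 8, before differentiation (day 0). Both genotypes were derived from littermate embryos of heterozygous parents and kept with LIF, a cytokine that holds mESCs in self-renewal, on irradiated fibroblasts of another mouse stock. The homozygous deletion of Alkbh1 was the labelled difference between the groups. The labels name no separate derivations or cultures within a genotype, so line and genotype cannot be told apart.

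As pluripotent cells leave the naive state that mESCs resemble, they pass through a primed epiblast state marked by Fgf5, Otx2 and Pou3f1. Nodal and Wnt signals at the posterior side of the epiblast then induce the primitive streak, where T, Mixl1, Gsc and Mesp1 are switched on and mesoderm and endoderm form. Cultures of mESCs can contain a minority of cells that have begun to express such genes.

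A single mean over both genotypes was available for each of the 10 genes, and the mean of each genotype for 4 of them. In Alkbh1-/- mESCs the mean of Foxd3 was 2.14-fold higher than in WT mESCs and that of Gsc 1.74-fold higher, whereas the mean of T was 1.81-fold lower and that of an Fgf5 probe set 1.84-fold lower. Only Foxd3 and T among these had a mean over all arrays above the median of the 33142 probe sets, and the Alkbh1-/- mean of T was below it. The values of Gsc and Fgf5 lay at the low end of what the arrays read, so their folds say little about the epiblast or the streak genes as groups. These are differences between the authors' means, with no values of single arrays behind them here. No spread between replicates could be set beside them, no test was made, and no direction below is more than the order of 2 means.

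The values of each genotype come from a list of 4326 entries, made by a class comparison. By its header, it lists those that passed a filter, 7320 in all, and had a nominal p under 0.05. A listed probe set therefore had to differ, and the presence of 4 of the 10 genes is not a finding about them. A probe set that is not listed has no genotype mean here, and nothing about its difference follows. The probe set identifiers of this list did not belong to its values, so each entry was assigned to the probe set of the larger table with the same mean level, which succeeded for 4232 entries, or 12.8% of all probe sets. Of these entries, 2179 were higher and 2053 lower in Alkbh1-/- mESCs. The targeted gene checks the labels under this assignment. Alkbh1 (1434660_at) had a geometric mean intensity of 761 in WT and 25.7 in Alkbh1-/- mESCs, and its dimmer probe set 1438681_at had 120 in WT and 34.6 in Alkbh1-/- mESCs.

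Brightness is given as the authors' mean log2 intensity over all 6 arrays. The values of the 33142 probe sets, called all probe sets here, ran from 3.22 to 14.67 with a median of 6.31. A probe set below that median is called dim. By the header of the class comparison, 45101 probe sets were used for its variance model. The median and percentiles given here are therefore not those of the whole array. The brightness of a probe set depends on its oligonucleotides as well as on its transcript, so the levels of different genes are not ranked against each other.

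**Figure D1:**
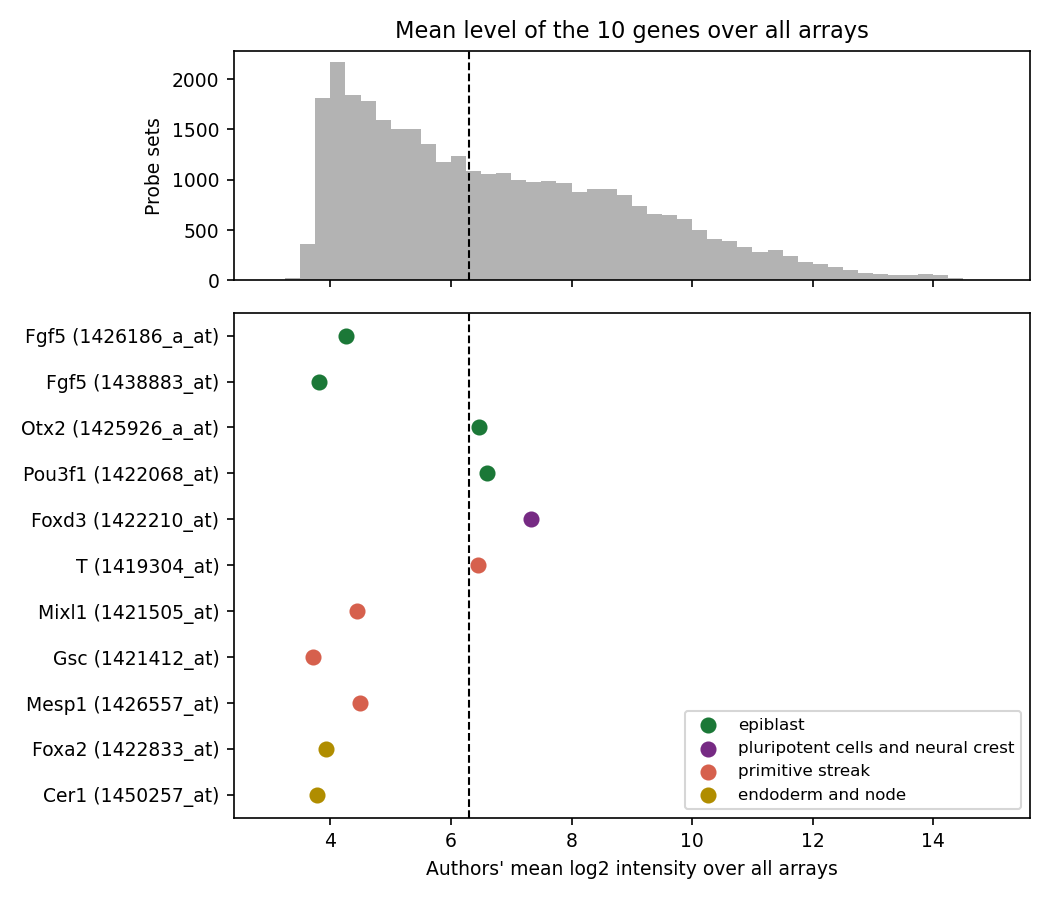
Mean log2 intensity over all arrays (horizontal axis) for the 11 probe sets of the 10 genes (points, coloured by role), under the distribution of all 33142 probe sets (grey bars, number of probe sets). The dashed line is the median of all probe sets, 6.31; Otx2, Pou3f1, Foxd3 and T lie above it, and the other 7 probe sets lie below it.

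Of the 10 genes, 6 were dim at their brightest probe set and 4 were not. Among the 3 epiblast genes 1 was dim, and among the 6 genes of the primitive streak, endoderm and node 5 were dim. The genes nearest to the threshold were T, at 6.45, and Otx2, at 6.46, just above it, and Mesp1, at 4.50, below it. No gene lay between 4.50 and 6.45, and the same 6 were below the 25th percentile of all probe sets, 4.80. By definition 50% of all probe sets are dim, and 7 of the 11 probe sets of these genes were. The share of all named genes that were dim at their brightest probe set was not computed. The counts of genes therefore have no background beside them, and they are not a finding about the epiblast or the streak genes.

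Fgf5, a secreted growth factor whose transcript is a classic sign of the primed epiblast, was dim at both of its probe sets. Its brighter probe set, 1426186_a_at, had a mean of 4.26 over all arrays, above 13.4% of all probe sets, and no mean for each genotype. Its other probe set, 1438883_at, had a mean of 3.81, above 1.98% of all probe sets. There the geometric mean intensity was 19.0 in WT and 10.3 in Alkbh1-/- mESCs, a log2 difference (Alkbh1-/- minus WT) of −0.88. On the log2 scale these means were 4.25 and 3.37, and the lowest genotype mean of any assigned entry was 2.67. The Alkbh1-/- mean was below all but 0.473% of the genotype means in the list, so this fold rests on values at the low end of the range, and on the dimmer probe set alone.

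Otx2, a homeobox factor that drives the exit from the naive state and later patterns the forebrain, had a mean log2 intensity of 6.46 (1425926_a_at). Pou3f1 (Oct6), a POU factor of the epiblast and of neural progenitors, had a mean of 6.61 (1422068_at). Both stood slightly above the median, above 52.1% and 53.9% of all probe sets. Neither gene had a mean for each genotype.

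Foxd3 is a forkhead factor needed in pluripotent cells and in the neural crest. Its mean over all arrays was 7.33 (1422210_at), above 62.9% of all probe sets. The geometric mean intensity was 110 in WT and 235 in Alkbh1-/- mESCs, a log2 difference of 1.10. On the log2 scale the WT mean was 6.78 and the Alkbh1-/- mean 7.88, and both lay above the median of all probe sets. In size, this difference exceeded 85.4% of those of all assigned entries.

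T, the T-box factor that specifies mesoderm in the streak, had a mean of 6.45 over all arrays (1419304_at). The geometric mean intensity was 118 in WT and 65.0 in Alkbh1-/- mESCs, a log2 difference of −0.86. The WT mean, 6.88 on the log2 scale, was above the median of all probe sets, and the Alkbh1-/- mean, 6.02, was below it. T was the only gene of the streak, endoderm and node that was not dim.

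Gsc, a homeobox factor of the organizer and the anterior streak, had the opposite order of means and was very dim. Its mean over all arrays was 3.71 (1421412_at), above 0.769% of all probe sets. The geometric mean intensity was 9.91 in WT and 17.3 in Alkbh1-/- mESCs, a log2 difference of 0.80. The WT mean was below all but 0.354% of the genotype means in the list, so this fold rests on values at the low end of what the arrays read.

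The other genes of the streak and its derivatives were dim and had no genotype means. Mixl1, a homeobox factor of mesendoderm, had a mean of 4.45 over all arrays (1421505_at), and Mesp1, a bHLH factor of the earliest cardiac mesoderm, had 4.50 (1426557_at). Foxa2, a forkhead factor of endoderm and node, had a mean of 3.92 (1422833_at). Cer1, a secreted inhibitor of Nodal and BMP signals made in the anterior visceral endoderm and definitive endoderm, had 3.78 (1450257_at). No detection call accompanied these values, so a dim probe set is not shown to lack its transcript.

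**Figure D2:**
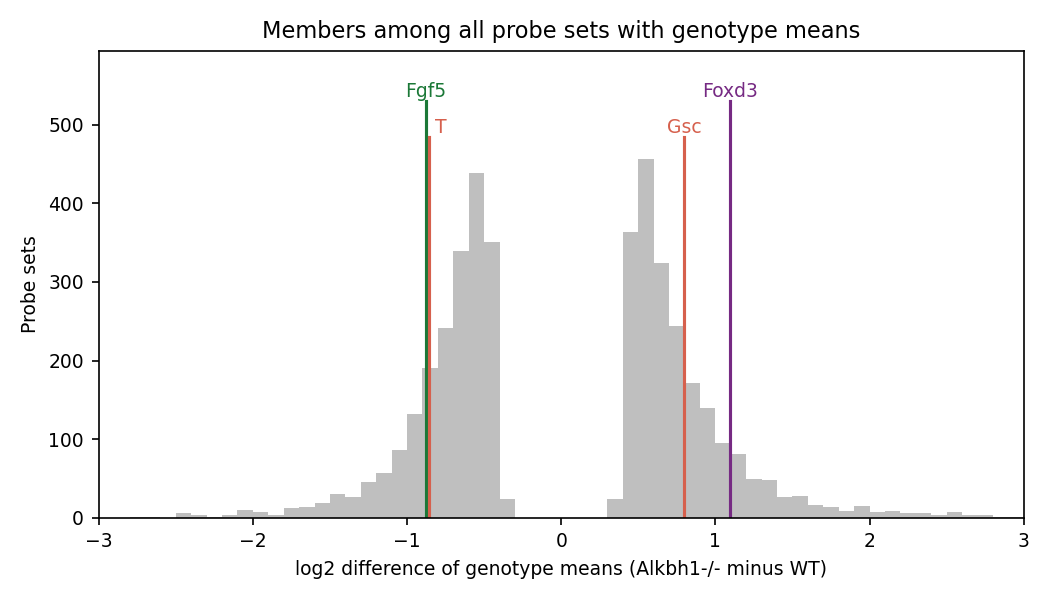
Log2 difference of the genotype means, Alkbh1-/- minus WT (horizontal axis), for the assigned entries of the class comparison (grey bars, number of probe sets; 31 entries with a size of 3 or more lie outside the plot). Coloured lines mark Fgf5 at −0.88, T at −0.86, Gsc at 0.80 and Foxd3 at 1.10; no entry had a size under 0.37.

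All 4 genes with genotype means differed by more than 1.5-fold, Foxd3 and Gsc with a higher and T and Fgf5 with a lower mean in Alkbh1-/- mESCs. Among the 4232 assigned entries, 32.8% were higher in Alkbh1-/- mESCs by more than 1.5-fold and 30.3% were lower by more than 1.5-fold. The median size of the log2 difference was 0.67 over these entries and the smallest was 0.37. The sizes for Fgf5, T and Gsc, 0.88, 0.86 and 0.80, exceeded 73.0%, 71.1% and 66.3% of those of all entries.

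Further genes of the same developmental step were taken from a list of 22, of which 20 had a named probe set. Of these, 4 had a mean in each genotype, at 8 of their 30 probe sets, where 12.8% of all probe sets had such means. The list was chosen with earlier results of these data known, so this count is not a finding about it. Sp5, a zinc-finger factor that like T is a known target of Wnt signalling, had a geometric mean intensity of 246 in WT and 87.9 in Alkbh1-/- mESCs, a 2.79-fold lower mean (1422914_at). Dnmt3b, a de novo DNA methyltransferase abundant in the primed epiblast, had a mean of 5077 in WT mESCs and of 1825 in Alkbh1-/- mESCs at its brightest probe set, 1449052_a_at. Its other 2 probe sets were lower in Alkbh1-/- mESCs as well, by 3.31-fold and 2.77-fold. The latter, 1442655_at, was dim, with a mean of 6.19 over all arrays. Lefty2, a secreted Nodal inhibitor that Nodal itself induces, had a mean of 561 in WT mESCs and of 1528 in Alkbh1-/- mESCs, which is 2.72-fold higher (1436227_at). Fgf4 is secreted by pluripotent cells and favours their exit from self-renewal. Its means were higher in Alkbh1-/- mESCs at 3 probe sets, by 0.46 to 0.58 on the log2 scale. Over all arrays these probe sets stood at 10.86, 7.73 and 5.71, of which only the last was dim. The brightest probe set of Fgf4, also at 10.86, had no genotype means. As among the 10 genes, lower means in Alkbh1-/- mESCs (Sp5 and Dnmt3b) stood beside higher ones (Lefty2 and Fgf4). There were 4 probe sets of each among the 8, close to the division over all assigned entries, 51.5% higher and 48.5% lower. Of all genes with several entries, 99.6% had them in 1 direction, so the 8 probe sets are not independent. The 8 probe sets were listed for differing, as were all others with genotype means.

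**Figure D3:**
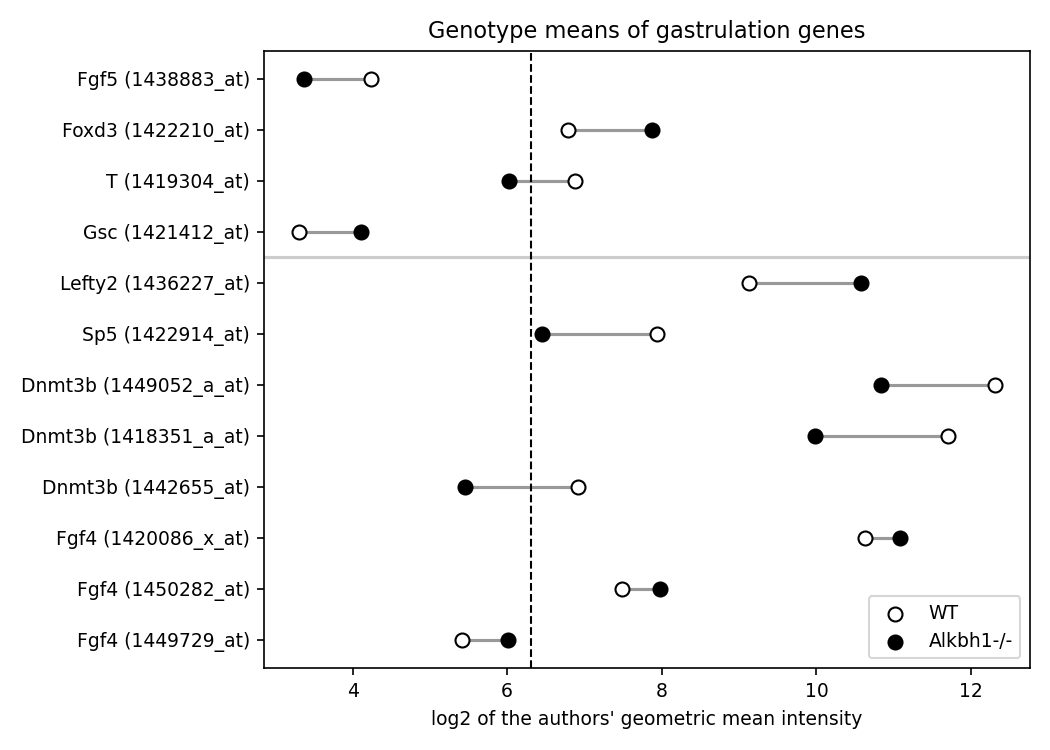
Log2 of the geometric mean intensity in WT (open circles) and Alkbh1-/- mESCs (filled circles) for the probe sets with genotype means: 4 of the 10 genes above the grey line and 8 probe sets of 4 further genes below it. The dashed line is the median of all probe sets, 6.31; no error bars are drawn because values of single arrays were not used.

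Other transcripts differed between the same groups. Of 8 markers of undifferentiated mESCs, all had a probe set that was not dim, between 10.05 and 14.49 over all arrays, and all 7 of their probe sets with genotype means were higher in Alkbh1-/- mESCs, against 51.5% of all assigned entries. These belong to Nanog, Zfp42, Esrrb and Klf4, and their intensities summed to 14866 in WT and 25376 in Alkbh1-/- mESCs. The other 4 of the 11 probe sets of this list, the only ones of Pou5f1, Sox2, Tdgf1 and Dppa5a, had no genotype means. Of 8 markers of fibroblasts, the feeder cells of these cultures, 7 were not dim, and all 7 probe sets with genotype means, those of Col1a1, Col1a2, Col3a1, Thy1 and Fbn1, were lower in Alkbh1-/- mESCs, against 48.5% of all assigned entries. Their intensities summed to 4381 in WT and 2277 in Alkbh1-/- mESCs, and the other 7 of the 14 probe sets had no genotype means. The sums of both lists cover only probe sets listed for differing. Probe sets of 1 gene are not independent, and the 7 of each list stand for 4 mESC markers and 5 fibroblast markers. Fewer cells of a type and less RNA per cell cannot be told apart in such bulk samples. The Y-linked Eif2s3y, looked at after its values were seen, had a mean of 751 in WT mESCs and of 14.9 in Alkbh1-/- mESCs (1417210_at). The groups thus differed in this Y-linked transcript as well as in genotype, and these cannot be told apart here. The part of feeder cells, of the balance of mESC states and of the sex chromosomes in the differences of Foxd3, T, Gsc and Fgf5 was not tested.

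The DNA before the start of T and Foxd3 is shown because these were the genes with genotype means that were not dim. Both windows are the 250 bases before the start of the RefSeq transcript, in assembly GRCm38.p6 and on the plus strand, written 5′ to 3′. The window of T is chr17:8434173-8434422, and capitals mark the letters CTTTGA on either strand, the core of the sequence that Tcf and Lef factors, the effectors of Wnt signalling, recognise. The window of Foxd3 is chr4:99656049-99656298, and capitals mark CpG dinucleotides, the sites of DNA methylation.

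T: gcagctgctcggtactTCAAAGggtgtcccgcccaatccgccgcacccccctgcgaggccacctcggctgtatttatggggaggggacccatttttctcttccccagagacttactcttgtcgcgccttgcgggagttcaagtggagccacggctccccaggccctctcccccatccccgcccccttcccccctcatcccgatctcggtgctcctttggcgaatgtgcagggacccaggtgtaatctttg

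Foxd3: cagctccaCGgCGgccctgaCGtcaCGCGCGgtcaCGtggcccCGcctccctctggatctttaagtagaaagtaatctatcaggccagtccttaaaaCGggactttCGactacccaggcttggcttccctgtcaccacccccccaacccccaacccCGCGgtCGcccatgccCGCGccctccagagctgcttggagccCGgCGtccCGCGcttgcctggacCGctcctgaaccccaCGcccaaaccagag

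The window of T held these letters on the minus strand, and 13.8% of all 32851 windows of this length held them on either strand. Among the 13 windows of the genes that had one, 2 held them, those of T and Mesp1. The Foxd3 window held 21 CpG dinucleotides, more than 83.7% of all windows, and the T window held 14, more than 70.6%. In the windows of the 10 genes the number ran from 2 in Mesp1 to 24 in Fgf5, against a median of 6 over all windows. Otx2 and Foxa2 each had windows at several starts, with 6 to 14 and 6 to 20 CpG dinucleotides. Pou3f1 and Mixl1 had no window here. These are letters in a sequence, and no binding or methylation was measured.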

How the data were processed

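Total RNA of mESCs was hybridized to Affymetrix mouse genome arrays, and the authors normalized the 6 arrays together by robust multiarray averaging (RMA). A first deposited table gives the log2 intensity of each probe set as the authors' mean over all arrays; how its probe sets were chosen is not given in the sources used here. A second table, prepared for the authors by an outside company, gives the geometric mean intensity of each genotype. Its WT class is labelled C1, which the deposited description states is a mislabel of C3, the WT arrays. Both tables also hold the authors' fold changes, test statistics and p-values, which were not used, so that no test could be made; the design had foreseen limma on single arrays.

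An entry of the second table was assigned to a probe set when the mean of its 2 log2 values lay within 1e-06 of exactly 1 mean of the first table. The assignment was tried on simulated data in which levels were spread evenly and every entry had a true match. The real levels crowd at the low end and some entries had no match. That trial therefore cannot give the share of wrong assignments among dim probe sets. Probe sets were named through gene identifiers, accessions and symbols of RefSeq (assembly GRCm38.p6), which named 28205 of them (85.1%), and a gene is given by its brightest probe set unless stated. Genes named are the 10 members, Alkbh1, further list genes with a value in each genotype and the marker lists. The members and lists were chosen with earlier results of these data known. Alternatives were the mean over a gene's probe sets, another threshold for dim, a filter on dim probe sets, a tighter tolerance and assignment by identifier. Precision is limited by how few arrays there were. Python 3.11.15, pandas 2.3.3, numpy 2.4.6 and matplotlib 3.10.9 were used.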

Additional observations from a re-analysis of the deposited data

How the results depend on the processing

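Assignment of the genotype means by the identifier printed beside them, in place of the mean level, gave other log2 differences: 1.83 for T, which reverses its direction, −0.39 for Fgf5, 0.66 for Foxd3 and 0.76 for Gsc. By level, 705 of 708 genes with several entries (99.6%) had all their entries in 1 direction, and by identifier 292 of 714 (40.9%). A tolerance 10 times tighter kept 3567 of the 4232 assigned entries, among them those of all 4 genes. It can drop a value but not change it. Leaving out dim probe sets kept Foxd3 and T and gave no value for Fgf5 and Gsc. The mean over probe sets moved the level of Fgf5 to 4.03 and no other level, and gave no genotype difference for Fgf5, since 1 of its probe sets has no genotype means. The count of dim genes was 6 with the median, with the 25th percentile and with the mean over probe sets. No paired analysis was possible because the columns used are means over arrays and carry no replicate numbers; fits with another prior variance or without single replicates were not run for the same reason.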

Other observations

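The 2 deposited tables stem from the same normalized values but pair them differently with probe sets. Of the 4326 entries of the class comparison, 4232 had a mean level found once in the table of all probe sets, 29 had several candidates and 65 had none. Among the 4232, 8 carried the same identifier in both tables. Read by identifier, the class comparison would give Alkbh1 (1434660_at) a log2 difference of −1.22, and 0.60 at its dimmer probe set (1438681_at), where the assignment by level gives −4.89 and −1.79.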
